A study of Mus musculus with 6 samples.

Results

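The genes described here encode the contractile filaments of smooth muscle, the proteins that regulate them, the structures that anchor them, and transcription factors of the smooth muscle program. They come from a list of 33 gene symbols, and a probe was assigned to a gene where its symbol in the platform annotation equalled the listed one. Of these genes, 29 had at least 1 probe, with 49 probes in all, among 15123 named genes and 30649 features (named genes plus unnamed probes). Flna, Actn1, Ppp1r12a and Ppp1r12b had no probe of that symbol and are not analysed here.

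The tissue was the antrum, the distal stomach, at postnatal day 14. Mice homozygous for a germline Kit allele, K641E:Neo, were set against Kit WT/WT littermates in 3 pairs. The mutant allele carries both the amino acid change and the Neo sequence, whose effects cannot be told apart, and the sexes of the animals are not in the labels. Every mutant and its littermate shared 2 arrays of opposite dye assignment, so there are 6 arrays but 3 replicates. In a whole piece of tissue, fewer cells of a type and less RNA per cell cannot be told apart.

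Values are log2 ratios within an array, likely mutant over wild type, so they show differences and not levels, and whether the antrum expresses a gene cannot be read from them. Base 2 is assumed from the size of the values. The deposited ratios of a dye-swapped pair of arrays were opposed (r over all probes of -0.61, -0.74 and -0.83 in pairs 1, 2 and 3), so they follow the dye, and red over green was assumed. The direction rests on that assumption and on Spry4 and Tpbg, which the study's paper reports as up-regulated and which had 1.38 ± 0.36 and 1.96 ± 0.42 (limma SE, n = 3). With the opposite order every sign below would turn. The medians of all features were within 0.003 of 0 in each pair, so a shift of the smooth muscle genes is one against all features.

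Smooth muscle contracts when a calcium-activated kinase phosphorylates the light chains of its myosin, which then pulls on actin filaments decorated with tropomyosin, caldesmon and calponin. Dense bodies, adhesion plaques and desmin filaments carry the force to the cell border. Serum response factor and its partner myocardin switch on many of these genes together by way of a DNA element, the CArG box. In the antrum this muscle forms the outer wall that mixes and grinds food, and it is paced by the Kit-dependent interstitial cells of Cajal.

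The windows below show this element before genes of the list, because SRF acts through it on many of them. A CArG box is CC, an inner stretch of A or T, and GG, 10 letters in all, and a match on one strand is also one on the other. In the 250 bases before the annotated starts, RefSeq sequence (GRCm38.p6) was matched for 29 of the 33 genes, with 38 start sites. Actg2, Myh11, Myocd and Tagln were not matched. An exact box lay before 6 of the 38 starts (15.8%), against 482 of 32851 starts of all genes (1.47%). The same Ldb3 box was counted for more than 1 start, and its window is not printed below. With up to 1 C or G allowed in the inner stretch, boxes lay before 10 starts (26.3%), against 8.59% of all starts. By gene, 5 of 29 had an exact box (17.2%, against 1.62% of all genes). With up to 1 other letter 9 did (31.0%, against 9.78%). A match describes the letters and is not a sign that the factor binds there. Capitals mark the box, and the distance runs from its first letter to the annotated start.
Acta2, 84 bases before the start, chr19:34255438-34255467, minus strand, 1 other letter: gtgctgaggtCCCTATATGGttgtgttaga
Acta2, 34 bases before the start, chr19:34255388-34255417, minus strand, 1 other letter: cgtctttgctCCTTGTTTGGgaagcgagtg
Synm, 239 bases before the start, chr7:67759962-67759991, minus strand, 1 other letter: caacggggagCCTCATAAGGtgtcccagat
Pdlim3, 100 bases before the start, chr8:45885377-45885406, plus strand, 1 other letter: tctctcacttCCAAAGTTGGagctctcctt
Itgb1, 37 bases before the start, chr8:128685607-128685636, plus strand, 1 other letter: gcctccccctCCTTTTCAGGcgcggctgac
Srf, 82 bases before the start, chr17:46556225-46556254, minus strand, exact: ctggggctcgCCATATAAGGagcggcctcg
Srf, 62 bases before the start, chr17:46556205-46556234, minus strand, exact: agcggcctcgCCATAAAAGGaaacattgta
Vcl, 227 bases before the start, chr14:20929161-20929190, plus strand, exact: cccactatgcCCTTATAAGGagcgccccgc
Myl6, 50 bases before the start, chr10:128493040-128493069, minus strand, exact: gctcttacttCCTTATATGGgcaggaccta
Fhl1, 102 bases before the start, chrX:56779571-56779600, plus strand, exact: ccttggatcaCCTAAAATGGttaagaattt

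Smooth muscle genes were lower in the mutant of pairs 1 and 3 and higher in the mutant of pair 2. Over the 29 genes the median log2 ratio was -0.41 in pair 1, 0.21 in pair 2 and -0.22 in pair 3. The counts below 0 were 28, 7 and 23 of 29. The median of the means over pairs was -0.22, with 22 genes below 0 and 7 above. It was -0.05 without pair 1, -0.31 without pair 2 and -0.12 without pair 3, so its sign held and its size depended on the pairs included. In pair 3 the Y-linked gene Eif2s3y differed as well (-5.06, against -0.03 and -0.05 in pairs 1 and 2). Sex and genotype cannot be told apart in that pair, and the part of sex in its values was not tested.

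In the limma test of the pair means against 0, none of the 29 genes passed at an adjusted p of 0.05 over all features, where 0.00653% of features did. Adjusted p-values of the 29 ran from 0.923 to 0.998. At an unadjusted 0.05, 3 genes were lower (Lmod1, Itga8 and Pln), against 2.16% of all features, and 0 were higher, against 2.74%. Over named genes these shares were 2.72% and 3.78%. Below 0 on all 6 arrays were Lmod1, Pln, Itga8 and Myocd, 4 of 29 (13.8%), against 3.45% of features. Above 0 on all 6 were 0, against 3.87%. Over named genes these shares were 4.18% and 4.97%. No single Myocd probe was below 0 on all 6 arrays, and with the median of probes the count was 3 (3.48% of features). Without pair 2, 14 genes were lower at an unadjusted 0.05, against 2.54% of all features, and 17 were below 0 on all 4 remaining arrays, against 10.3%. Without pair 1, 2 were lower (3.70% of all features) and 3 higher (5.10%), and 4 were below 0 on all 4 arrays (12.4%) and 4 above (4300 of 30649 features). In both fits 0 passed after adjustment. With 3 pairs an exact sign-flip test of a single gene cannot go below 0.25, so no such test is given.

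The 3 pairs lay far apart for most of these genes. A count was made after the values were seen. It found 13 of 29 genes below 0 on the 4 arrays of pairs 1 and 3 and above 0 on both of pair 2. Of all features 3.73% had this pattern, and of named genes 4.21%. A limma F test over the 3 pairs, with a dye term on the 6 arrays, was also added after seeing the data. It called 20 of the 29 genes as different between pairs at an adjusted p of 0.05, against 16.7% of all features (22.4% of named genes). Its error is that between 2 arrays of the same RNA, so it says that pairs differed by more than hybridisation error and nothing about the genotype. The 2 arrays of a pair differed by 0.11 at the median gene, and the 3 pairs spanned 0.79. Over all features these were 0.12 and 0.18.

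**Figure D1:**
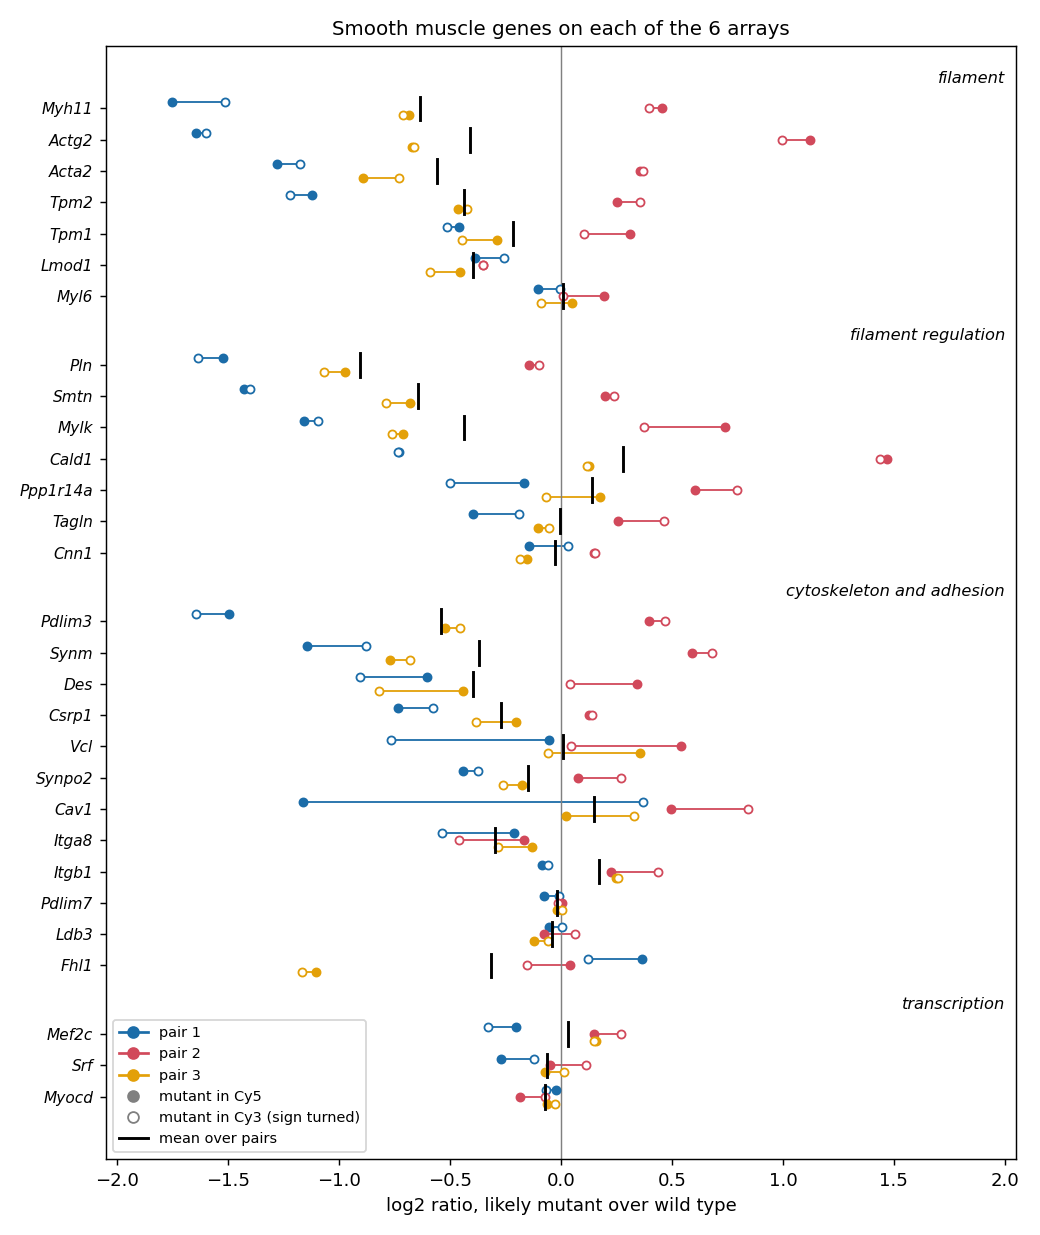
Log2 ratio (horizontal axis, likely mutant over wild type) of each of the 29 genes with a probe, grouped by role. Filled points are arrays with the mutant in Cy5, open points those with the mutant in Cy3 with the sign turned, a line joins the 2 arrays of a pair, and the black bar is the mean over 3 pairs. Most contractile genes have pair 1 far left, pair 3 between and pair 2 right of 0, while Lmod1 and Itga8 lie left of 0 in all pairs and Myocd, Pdlim7 and Ldb3 lie close to 0.

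By role, the medians of the filament genes spread furthest between pairs. The median was -1.17 in pair 1, 0.30 in pair 2 and -0.52 in pair 3 over 7 genes. Myh11, the heavy chain of smooth muscle myosin, had ratios of -1.75 and -1.51 in pair 1, 0.46 and 0.40 in pair 2, and -0.68 and -0.71 in pair 3. Its mean was -0.63 ± 0.43 (SE, n = 3; limma adjusted p 0.923), and in pair 1 it was the lowest of the 29 genes. The arrays of each pair lay together and the pairs did not overlap.

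Actg2, the actin of enteric smooth muscle, spread further between pairs. It had -1.64 and -1.60 in pair 1, 1.12 and 0.99 in pair 2, and -0.67 and -0.66 in pair 3, with a mean of -0.41 ± 0.57 (adjusted p 0.949). Without pair 1 its mean was 0.20, so the sign of the mean rested on that pair. Acta2, the actin first described in vascular smooth muscle and also present in the gut wall, had -1.28 and -1.18 in pair 1, 0.36 and 0.37 in pair 2, and -0.89 and -0.73 in pair 3. Its mean was -0.56 ± 0.35 (adjusted p 0.923). Actins are close in sequence, and how far a probe of one binds another was not tested.

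Among the tropomyosins, which lie along actin, Tpm2 had pair means of -1.17, 0.30 and -0.44 and Tpm1 -0.49, 0.21 and -0.37. Of the 3 Tpm2 probes, 2 ran together with -1.71 and -1.66 in pair 1, while the other had -0.15 there. Myl6, the essential light chain shared by smooth muscle and non-muscle myosin, stayed between -0.10 and 0.19 on all 6 arrays.

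Lmod1, leiomodin, which nucleates actin filaments in smooth muscle, was the filament gene that had the same sign throughout. It had -0.39 and -0.25 in pair 1, -0.35 and -0.35 in pair 2, and -0.46 and -0.59 in pair 3. Its mean of -0.40 ± 0.06 had the lowest unadjusted p of the 29 genes (0.00307, limma), with an adjusted p of 0.923, and it was lower on 6 of 6 arrays. Its pairs were not called different (F test, adjusted p 0.312). In pair 2, where 6 of the 7 filament genes were above 0, Lmod1 had the lowest ratio of all 29 genes, on a single probe.

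Regulators of contraction included the gene with the largest mean difference and the one with the highest ratio. Pln, phospholamban, which restrains the calcium pump of the sarcoplasmic reticulum, had -1.52 and -1.64 in pair 1, -0.14 and -0.10 in pair 2, and -0.97 and -1.07 in pair 3. Its mean was -0.91 ± 0.31, a ratio of 0.533 (unadjusted p 0.0461, adjusted p 0.923), and it was lower on 6 of 6 arrays. Its pairs differed beyond array error (F test, adjusted p 0.000607).

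Smtn, smoothelin, a protein of contractile smooth muscle cells, had -1.43 and -1.40 in pair 1, 0.20 and 0.24 in pair 2, and -0.68 and -0.79 in pair 3. Its mean was -0.64 ± 0.35 (adjusted p 0.923), and its 2 probes ran in parallel, with -1.16 and -1.67 in pair 1. Mylk, the kinase that phosphorylates the myosin light chains, had -1.16 and -1.09 in pair 1, 0.74 and 0.38 in pair 2, and -0.71 and -0.76 in pair 3. Its mean was -0.43 ± 0.37 (adjusted p 0.925), and each of its 3 probes was below 0 in pairs 1 and 3 and above 0 in pair 2.

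Cald1, caldesmon, which binds actin and slows the myosin motor, had the highest ratio of the 29 genes in pair 2. It had -0.73 and -0.73 in pair 1, 1.47 and 1.44 in pair 2, and 0.13 and 0.12 in pair 3, with a mean of 0.28 ± 0.46 (adjusted p 0.951). Pairs 1 and 2 were 2.18 apart, against 2.68 for Actg2, and pair 3 was above 0. Its mean was -0.30 without pair 2. Ppp1r14a, an inhibitor of myosin phosphatase also called CPI-17, had pair means of -0.34, 0.70 and 0.05, the same order.

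Tagln and Cnn1, although classic smooth muscle markers, had means near 0. Tagln, transgelin, an actin-bundling protein, had -0.40 and -0.19 in pair 1, 0.26 and 0.47 in pair 2, and -0.10 and -0.06 in pair 3. Its mean was -0.00 ± 0.14 (adjusted p 0.998). Its probes disagreed: one had -0.79, 0.84 and -0.22 in pairs 1, 2 and 3, the pattern of Actg2 and Myh11, and the other 0.21, -0.12 and 0.06. Cnn1, calponin, which binds actin and inhibits the myosin motor, had -0.14 and 0.03 in pair 1, 0.15 and 0.16 in pair 2, and -0.15 and -0.19 in pair 3. Its mean was -0.02 ± 0.08 (adjusted p 0.976), on a single probe, and its pairs were not called different (F test, adjusted p 0.106).

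**Figure D2:**
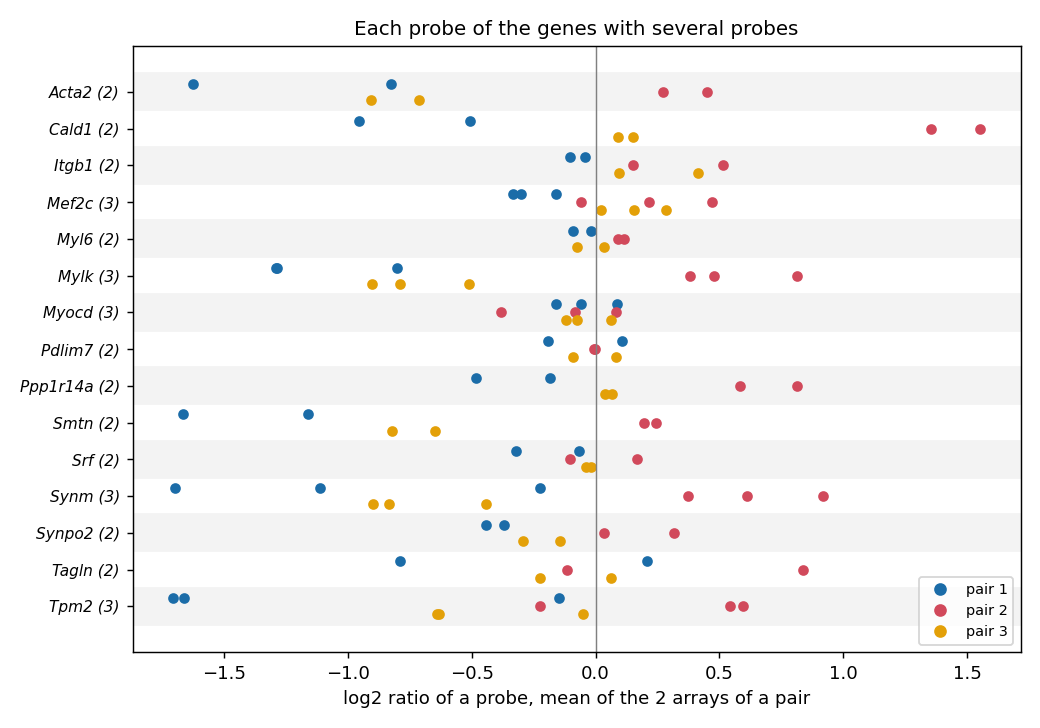
Log2 ratio (horizontal axis) of every probe of the 15 genes with several probes, each point the mean of the 2 arrays of a pair, coloured by pair, with the number of probes beside the gene. The probes of Smtn, Mylk and Acta2 are below 0 in pairs 1 and 3 and above 0 in pair 2, whereas 1 probe of Tagln and 1 of Tpm2 lie closer to 0 than the other probes of the gene.

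Genes of intermediate filaments, plaques and adhesion split into those that followed the contractile filaments and those that did not. Des, desmin, the main intermediate filament protein of muscle, had -0.60 and -0.91 in pair 1, 0.34 and 0.04 in pair 2, and -0.44 and -0.82 in pair 3, with a mean of -0.40 ± 0.22 (adjusted p 0.923). The array with the mutant in Cy3 was lower in every pair. Synm, synemin, an intermediate filament partner of desmin, had pair means of -1.01, 0.63 and -0.73. Pdlim3, a LIM protein that binds alpha-actinin, had -1.57, 0.43 and -0.49.

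Smaller ratios in the same order were found for Csrp1, a cysteine-rich LIM protein of smooth muscle, with -0.66, 0.13 and -0.29. Synpo2, synaptopodin 2, an actin-bundling protein, had -0.41, 0.18 and -0.22. Vcl, vinculin, which links adhesion plaques to actin, had -0.41, 0.30 and 0.15, but its arrays with the mutant in Cy5 were higher than those with Cy3 by 0.54 on average. Cav1, caveolin of the smooth muscle membrane, had -1.16 on the array of pair 1 with the mutant in Cy5 and 0.37 on that with Cy3. Its arrays with the mutant in Cy5 were lower than those with Cy3 in all pairs, by 0.73 on average, and its pairs were not called different (F test, adjusted p 0.128).

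Itga8 and Itgb1 encode the chains of integrin alpha-8 beta-1, a receptor for matrix proteins. Itga8 had -0.21 and -0.53 in pair 1, -0.16 and -0.46 in pair 2, and -0.13 and -0.28 in pair 3. Its mean was -0.30 ± 0.05 (unadjusted p 0.00512, adjusted p 0.923). It was lower on 6 of 6 arrays. The 2 arrays of a pair were 0.26 apart on average and the pair means spanned 0.17, so that SE is small beside the array error. Itgb1, whose chain also pairs with many other alpha chains, had -0.09 and -0.06 in pair 1, 0.23 and 0.44 in pair 2, and 0.25 and 0.26 in pair 3. Its mean was 0.17 ± 0.10 (adjusted p 0.923), and its pair 3 mean of 0.25 was the highest of the 29 genes in that pair.

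Fhl1, a LIM protein of muscle, had a pattern of its own. It had 0.36 and 0.12 in pair 1, 0.04 and -0.15 in pair 2, and -1.10 and -1.17 in pair 3, with a mean of -0.32 ± 0.31 (adjusted p 0.929). That was the highest ratio of the 29 genes in pair 1 and the lowest in pair 3. Fhl1 lies on the X chromosome, and the Y-linked gene Eif2s3y had -0.03, -0.05 and -5.06 in the 3 pairs. In pair 3 it had -5.45 and -4.66 on the 2 arrays, so mutant and wild type there also differed strongly in a Y-linked transcript. Sex and genotype cannot be told apart in that pair. The part of this in the Fhl1 value, or in the other pair 3 values, was not tested. Pdlim7 and Ldb3, which encode PDZ and LIM proteins of the actin cytoskeleton, stayed between -0.12 and 0.06 on all 6 arrays. The Pdlim7 value averages 2 probes of opposite sign. In pairs 1 and 3, 1 probe had -0.19 and 0.08 and the other 0.105 and -0.09.

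With the probes of a gene averaged, the 3 transcription factors had ratios within 0.33 of 0 on every array. Myocd, myocardin, had -0.02 and -0.07 in pair 1, -0.18 and -0.07 in pair 2, and -0.06 and -0.03 in pair 3. Its mean was -0.07 ± 0.04 (adjusted p 0.923), and its pairs were not called different (F test, adjusted p 0.701). The pair means of its 3 probes lay between -0.38 and 0.09. Srf, which encodes serum response factor, had pair means of -0.20, 0.03 and -0.03. Its mean was -0.06 ± 0.06 (adjusted p 0.929), and its pairs were not called different either (F test, adjusted p 0.172). Of its 2 probes, 1 had -0.32, 0.17 and -0.02 in pairs 1, 2 and 3 and the other -0.07, -0.10 and -0.04. Mef2c, a MADS-box factor that acts with myocardin, had -0.26, 0.21 and 0.15, and its pairs differed beyond array error (F test, adjusted p 0.0280). Pair means of its 3 probes lay between -0.34 and 0.47, and 1 probe had -0.16, -0.06 and 0.02 in pairs 1, 2 and 3. Because only ratios are available, a transcript too dim to measure would also lie near 0.

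The CArG boxes counted above were set beside the 13 genes below 0 in pairs 1 and 3 and above 0 in pair 2. Of these, 3 had a box, in each with 1 other letter (Acta2, Synm and Pdlim3). Another 7 of the 13 had start-site sequence and no box in it (Tpm1, Tpm2, Smtn, Mylk, Des, Synpo2 and Csrp1), and the remaining 3 were not matched (Actg2, Myh11 and Tagln). Outside the 13, 6 genes had a box, namely Itgb1 with 1 other letter and Srf, Vcl, Myl6, Fhl1 and Ldb3 with an exact one. The number of genes is too small for a comparison.

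**Figure D3:**
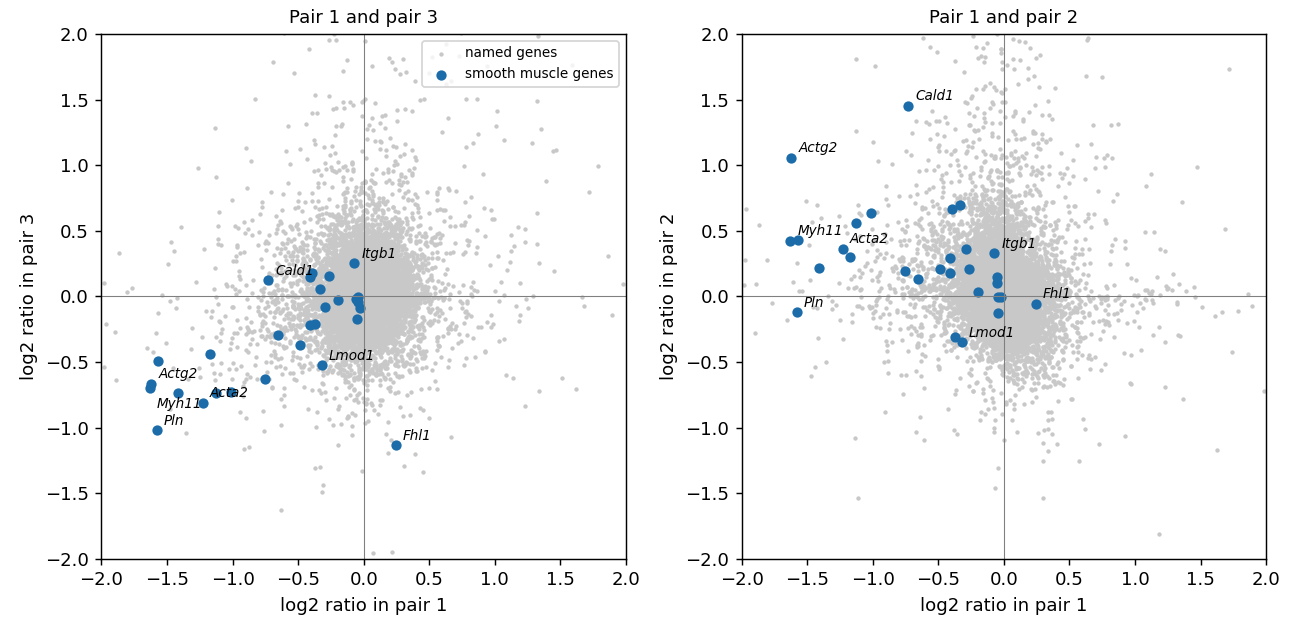
Log2 ratios of pair 1 (horizontal axes) against pair 3 (left) and pair 2 (right) for all named genes (grey) and the 29 smooth muscle genes (blue). The axes stop at 2 in each direction, which leaves out 81 and 103 named genes and no smooth muscle gene. On the left most smooth muscle genes run from the lower left to 0. On the right most lie in the upper left, with Pln, Itga8 and Lmod1 below the line at 0 and Fhl1 right of it.

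Across the 29 genes, the ratios of pair 1 correlated with those of pair 3 at r = 0.59 and with those of pair 2 at r = -0.39, and those of pairs 2 and 3 at 0.12. The rank correlations were 0.54, -0.53 and 0.07. Over all features r was 0.11, -0.08 and 0.45 in the same order. The points share arrays, genes are not independent replicates, and these values are descriptions. By size, 12 of 29 genes were lower by 0.5 or more in pair 1 (41.4%, against 1.92% of all features). In pair 2, 6 were higher by that much (20.7%, against 3.85%), and in pair 3, 10 were lower (34.5%, against 2.27%). Over named genes the shares were 2.84%, 5.39% and 2.09% in pairs 1, 2 and 3.

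Further genes of the contractile machinery were read from lists outside the 33. Of 30 other contractile and cytoskeletal genes, the medians were -0.16, 0.12 and 0.02 in pairs 1, 2 and 3. The sign pattern of pairs 1 and 3 below and pair 2 above 0 was found in 7, and pairs were called different for 16. In the lists that follow these counts were 5 and 9 of 22, 4 and 10 of 23, and 2 and 11 of 20. The 4 with the lowest p were Smoc2 (0.14 ± 0.05), Actg1, a cytoplasmic actin (0.31 ± 0.11), Pdlim5 (-0.17 ± 0.06) and Svil, supervillin (-0.15 ± 0.05). The 22 genes of adhesion and the dystrophin complex had medians of -0.17, 0.27 and -0.01. Among them Cav2 had 0.19 ± 0.05, the delta-sarcoglycan gene Sgcd 0.20 ± 0.06, Cavin2 0.17 ± 0.06 (0.38 with the mutant in Cy5 and -0.03 with it in Cy3, so its sign turned with the dye) and the epsilon-sarcoglycan gene Sgce 0.21 ± 0.09 (limma SE, n = 3 for each).

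The 23 genes of contraction signalling had medians of -0.14, 0.09 and -0.05. Tacr2, the neurokinin receptor through which tachykinins contract gut muscle, had -0.92, -0.50 and -0.76 in the 3 pairs. Its mean was -0.73 ± 0.10 (unadjusted p 0.00205, adjusted p 0.923), and it was lower on 6 of 6 arrays. Rgs2, a regulator that dampens contraction through G proteins, had -0.36, -0.37 and -0.34, with a mean of -0.36 ± 0.04 (unadjusted p 0.000919, adjusted p 0.891). Its arrays in pair 2 were -0.13 and -0.60, so the pair means lay closer together than the arrays. Ryr2, a calcium release channel, had -0.12 ± 0.04. Prkg1, the cyclic GMP-dependent kinase that relaxes smooth muscle, had 0.12, 0.94 and 0.50, with a mean of 0.52 ± 0.18.

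The 20 SRF cofactors and muscle regulators had medians of -0.04, 0.03 and 0.03. Fhl2, a LIM cofactor of SRF, had 0.43, 1.09 and 0.60, with a mean of 0.71 ± 0.15 (unadjusted p 0.0100, adjusted p 0.923), and was higher on 6 of 6 arrays. Gata6, a GATA factor of gut and vascular muscle, had -0.21 ± 0.05 and was lower on 6 of 6. Foxf2 had -0.33 ± 0.12, and Foxf1, a forkhead factor of the gut mesenchyme, -0.13, 1.93 and 0.96. In these 4 lists, 0 of 95 genes passed over all features by limma, where 0.00653% of features did. At an unadjusted 0.05, 4 were lower, against 2.16% of all features, and 6 higher, against 2.74%.

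**Figure D4:**
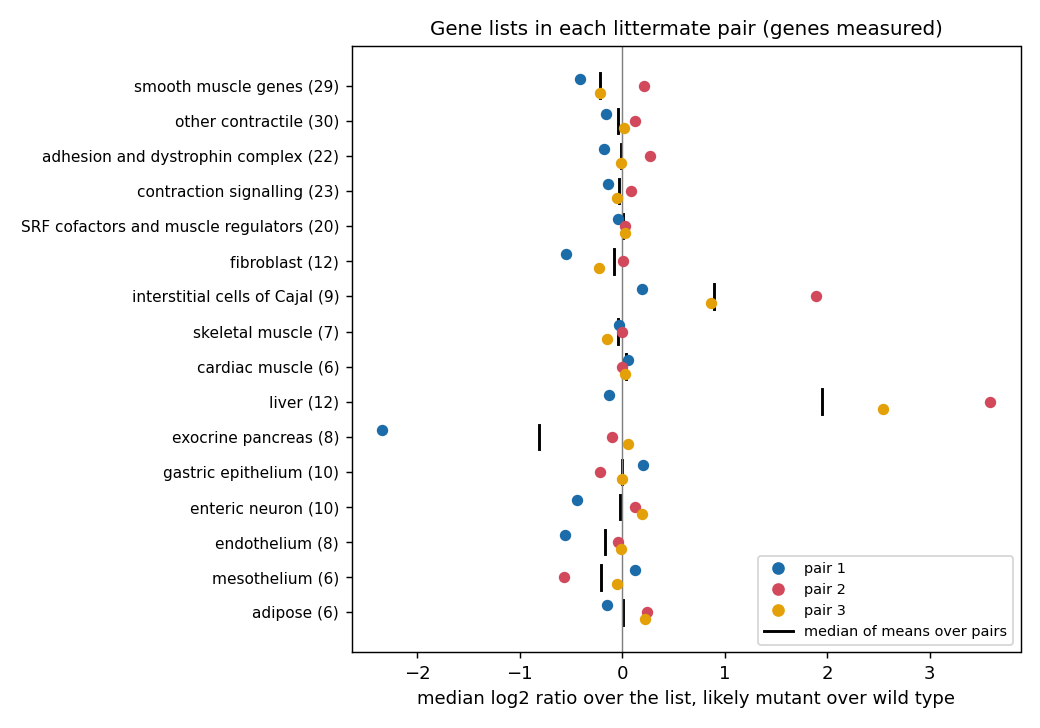
Median log2 ratio (horizontal axis) of the smooth muscle genes, of 4 further muscle lists and of 11 cell type lists in pairs 1, 2 and 3 (coloured points), with the number of genes measured in brackets and a bar for the median of the means over pairs. The smooth muscle genes lie at -0.41, 0.21 and -0.22, and the interstitial cell, liver and pancreas lists spread much further. The medians of the skeletal and cardiac muscle lists lie near 0, while single genes of both lists lie further out.

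Markers of other cells and organs in the tissue piece also differed between pairs. The F test called 12 of 12 liver, 8 of 8 pancreas, 8 of 9 interstitial cell, 7 of 10 neuron and 7 of 12 fibroblast genes. It called 5 of 8 endothelial, 4 of 6 mesothelial and 5 of 10 epithelial genes. For skeletal muscle, cardiac muscle and adipose it called 3 of 7, 3 of 6 and 2 of 6, against 16.7% of all features. The 12 liver genes had medians of -0.13, 3.59 and 2.55 in pairs 1, 2 and 3, with 5, 12 and 11 above 0, and the 8 exocrine pancreas genes -2.34, -0.10 and 0.05, with 8, 6 and 3 below 0. The 12 fibroblast genes had -0.55, 0.01 and -0.22, the same order of pairs as the smooth muscle genes, and 9, 5 and 9 of them were below 0. The 9 interstitial cell of Cajal genes had 0.20, 1.89 and 0.86, with 7, 7 and 8 above 0, and Kit itself had -0.02, 1.89 and 0.81. In pair 1 the 10 enteric neuron genes had -0.44, the 8 endothelial genes -0.56 and the 10 gastric epithelium genes 0.21. In pair 2 these had 0.13, -0.04 and -0.21, and in pair 3 0.19, -0.01 and 0.00. The 7 skeletal muscle genes had -0.03, -0.00 and -0.15, the 6 cardiac muscle genes 0.06, -0.01 and 0.02, the 6 mesothelial genes 0.12, -0.57 and -0.05, and the 6 adipose genes -0.15, 0.24 and 0.23. The part of the makeup of the pieces in the smooth muscle values was not tested.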

How the data were processed

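RNA of the antrum of 3 littermate pairs was amplified as aminoallyl antisense RNA, labelled with Cy5 or Cy3 and hybridised to arrays of 70-base probes, per the labels' protocols. The authors deposited 1 table of log2 ratios for 38467 probes and 6 arrays; the scanner, background correction and normalization were not given in the sources used here. Array medians lay between -0.003 and 0.004. Base 2 is inferred from a largest size of 5.831, above the 4.8165 of a log10 ratio at a maximum of 65535, and a natural logarithm is possible. Intensities were not used here, so the depth and background of a spot are unknown, and the number of arrays limits the precision.

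The sign of arrays with the mutant in Cy3 was turned, probes of a gene were averaged, then the 2 arrays of a pair, since these hold the same RNA. Platform annotation, its symbols checked against RefSeq (GRCm38.p6), named 22941 probes (59.64%). The 3 pair means of 30649 features were tested against 0 with limma 3.58.1 in R 4.3.3 (lmFit, eBayes, two-sided, Benjamini-Hochberg over all features, with 2 residual and 1.80 prior degrees of freedom). The ratio is formed within a pair, so the pairing is in the values. Arrays were also centred, scaled, taken by probe or by dye orientation, fitted with the pair as a random block or with robust eBayes, and pairs were left out in turn. The scripts were tested on simulated data. The members and lists were chosen with earlier results of these data known. Arrays and all values are given for Acta2, Actg2, Myh11, Cnn1, Tagln, Des, Smtn, Mylk and Myocd, for the 8 members with the lowest p, and for the highest and lowest in each pair; of each further list the 4 genes with the lowest p are named. Kit, Spry4, Tpbg and Eif2s3y were named for the direction and the pairs.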

Additional observations from a re-analysis of the deposited data

Results flagged for a closer look

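Among 61 values examined over the 6 arrays (genes named and list medians), 3 had 1 array far from the others by Dixon's test at 95%. Chance gives this in about 1 in 20 groups of independent samples, and the arrays of a pair share their RNA. Myocd had -0.18 in pair 2 with the mutant in Cy5, against -0.07 to -0.02 on the other arrays. Of its 3 probes, 1 had -0.795 on that array and the others 0.018 and 0.225, so the value came from 1 probe. Pdlim7 had -0.0775 in pair 1 with the mutant in Cy5, against -0.02 to 0.01. Its 2 probes had -0.25 and 0.095 on that array. Sgce had 0.65 in pair 2 with the mutant in Cy5, against 0.05 to 0.22.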

How the results depend on the processing

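Under 11 alternatives (centring, scaling, each probe on its own, the median of probes, either dye orientation alone, the pair as a random block, robust eBayes, and each pair left out) the count of smooth muscle genes called by limma was 0 in each direction. All features called numbered 2, and 0 with arrays scaled, with each probe on its own, with Cy5-labelled mutant RNA alone and on leaving out any 1 pair, 1 with the mutant in Cy3 only, and 61 with the pair as a random block. There Lmod1 had the lowest adjusted p of the 29 genes (0.0544), and Tacr2 was called lower (adjusted p 0.0293). That fit takes all 6 arrays, with a single correlation of 0.33 within pairs for every feature. Arrays of the same RNA thus count partly as separate replicates. In the limma fit of the 3 pair means Tacr2 had an adjusted p of 0.923. The genes below 0 on all arrays numbered 4 to 17 over the fits that omit a pair, 17 being without pair 2, where 10.3% of all features were; in the fits without pair 1 and pair 3 these shares were 12.4% and 7.45%. Without pair 1, 4 genes were above 0 on all arrays too (4300 of 30649 features). With the median of probes, 3 of 29 genes were below 0 on all 6 arrays (3.48% of features). With each probe on its own, 3 of 49 probes were (3.58% of all probes). The sign pattern of the pairs was found in 20 of 49 probes, against 3.86% of all probes. The sign of the mean changed for 3 genes without pair 1, 6 without pair 2, 5 without pair 3, 1 on arrays with Cy5-labelled mutant RNA and 6 on those with Cy3. Of the 16 further genes named, Cavin2 changed sign with the mutant in Cy3 only. Without the dye term, 18 of 29 genes differed between pairs, against 13.1% of all features. The median of the smooth muscle genes stayed below 0 under all 11 alternatives. The random block and robust eBayes keep the same means (median -0.2155) and centring gave -0.2157, so these could hardly move it. In pair 2 alone the median was 0.21. The causes were not tested.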
